A study of Mus musculus with 8 samples.

Results

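The piRNA pathway was represented by 9 genes chosen by name: Piwil1, Piwil2, Piwil4, Tdrd1, Tdrd6, Tdrd7, Ddx4, Mael and Mov10l1. They were carried by 12 of the 41174 probes of the array. The arrays compared mice given di-(2-ethylhexyl) phthalate (DEHP), a plasticiser, with mice given its vehicle, and the series asked how DEHP acts on areas of the adult testis rich in Sertoli cells. The DEHP group was 4 male C57BL/6J mice gavaged daily with 200 mg/kg of DEHP in corn oil for 21 days, and the vehicle group was 4 male C57BL/6J mice gavaged with corn oil alone over the same time. All were 21 weeks old, with no transgene named in the labels. RNA from 1 laser-captured cap of each mouse, from the middle layer of the seminiferous tubule, was amplified in 2 rounds and hybridised to 8 Agilent arrays of 2 colours.

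Each DEHP mouse shared its 2 arrays with a single vehicle mouse, the dyes being swapped between them, and a pair carries the number of its DEHP mouse. The partners were vehicle mouse 2 in pair 1, vehicle mouse 3 in pair 2, vehicle mouse 4 in pair 3 and vehicle mouse 1 in pair 4. Each dye orientation had a slide to itself, so that slide and dye orientation cannot be told apart. A dye bias that differed between the slides would not cancel in the mean of the swapped arrays. Between 51.0% and 56.2% of spots in DEHP channels were well above background, and between 49.8% and 59.5% in vehicle channels. The extraction protocol in the labels names Leydig cells as the captured cells, whereas the sample labels name Sertoli-cell-rich areas. Of the Sertoli markers, 9 of 10 were measured, with Gata4 not well above background. Amh was well above background in 7 of 8 DEHP and 5 of 8 vehicle channels and Fshr in 8 of 8 and 7 of 8, the others measured in all. Of the Leydig markers, 4 of 6 were measured, with Cyp11a1, the first enzyme of steroid synthesis, and Lhcgr, the receptor of luteinising hormone, not well above background. The 4 measured, Star, Cyp17a1, Hsd3b1 and Insl3, were well above background in 8 of 8 DEHP and 8 of 8 vehicle channels. Germ cell markers were measured as well: 5 of 8 for spermatogonia, 7 of 8 for spermatocytes, 8 of 8 for round spermatids and 8 of 8 for elongating spermatids.

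piRNAs are small RNAs of the germ line that guide PIWI proteins of the Argonaute family to transposon transcripts and other target RNAs. In mouse male germ cells, long precursors are unwound and cut at the cytoplasmic face of mitochondria, loaded into a PIWI protein, trimmed and methylated, and Tudor domain proteins hold the complexes together in the granules called nuage and, in spermatids, the chromatoid body. In mice the loss of many of these genes stops spermatogenesis, and Sertoli cells, the somatic cells of the tubule, are not known to run this pathway. In bulk RNA such as this, fewer cells of a type and less RNA per cell cannot be told apart.

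Probe sequences are shown because each value below rests on 1 or 2 oligonucleotides of 60 bases, and because the probes of Tdrd1 and of Mov10l1 gave different readings. All are written in lower case, with no base singled out, as the array files give them. The probes of Tdrd6 and Mov10l1 and the dimmer probe of Tdrd1 are shown whole, and for the others the first 30 bases are shown. The 2 probes of Piwil4, which could not be read, are left out.
Piwil1: tagttgttggtgtgtagcggctatagagtt
Piwil2: gctgagacctgaaatgtaaaagccatagaa
Tdrd1, brighter probe: gttgagtcgaccttctcatgtaaaaagttg
Tdrd1, dimmer probe: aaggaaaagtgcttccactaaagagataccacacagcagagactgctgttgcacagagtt
Tdrd6: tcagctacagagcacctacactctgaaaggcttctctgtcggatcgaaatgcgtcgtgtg
Tdrd7: ggctctgactgttgtggaggattgaaaaga
Ddx4: tttagatcatcagacatgtaatgaaaatgg
Mael: gccaacttcctttctgactacagtcatatt
Mov10l1, brighter probe: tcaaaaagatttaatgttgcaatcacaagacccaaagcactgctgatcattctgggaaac
Mov10l1, dimmer probe: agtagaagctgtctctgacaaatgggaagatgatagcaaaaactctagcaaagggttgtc

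The longest run of bases shared by any 2 of the 12 probes, on either strand, was 11, between the 2 probes of Piwil4. No other probe on the array shared a run of 20 bases with any of them. The array design places the probes on mouse build mm7, and the files do not say whether a probe lies in a coding or a non-coding part of an exon. The dimmer Tdrd1 probe maps over 482 bases (chromosome 19, 56781966 to 56782447, plus strand) and the dimmer Mov10l1 probe over 2747 bases (chromosome 15, 89068034 to 89070780, plus strand), more than their 60 bases, as for a probe laid across an intron.

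None of the piRNA pathway genes measured differed between DEHP and vehicle mice beyond the spread of the pairs. Of the 9 genes, 8 were measured, through 9 of the 12 probes, a probe being used where 4 or more of the 8 DEHP channels, or 4 or more of the 8 vehicle channels, stood well above background. The 9 probes used were above background in all 8 DEHP and all 8 vehicle channels. In limma, with Benjamini-Hochberg adjustment over 23009 probes, 0 of the 8 genes had an adjusted p under 0.05, where 0% of all probes did. At an unadjusted p under 0.05 there were 0 of 8 genes, against 4.59% of all probes, and the smallest adjusted p among the 8 was 0.907 (Tdrd1). The dye itself, Cy5 over Cy3, passed for 24.9% of all probes and for 0 of the 8 genes, with Piwil2 nearest at an adjusted p of 0.0693.

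The 8 genes had 3 mean ratios above 0 and 5 below 0, where 48.9% of all probes were above 0. Their median log2 ratio of DEHP over vehicle was -0.041, against -0.0020 over all probes. With median centring in place of loess, 6 were above 0 and 2 below, and their median was 0.051, against 0.012 over all probes, so that no direction of the set is read from these counts. No gene kept 1 sign over the 4 pairs (0 of 8, against 13.6% of all probes), although Mov10l1 did with the ratios of the scanner software, and in no gene were the DEHP and vehicle mice apart (0 of 8, against 1.79% of all probes). With the main ratios, the limma 95% interval lay within 2-fold for 8 of the 8 genes. It lay within 1.5-fold for 6 and within 1.2-fold for 4. Limma moderates the variance of a probe towards that of all probes. For genes with a larger SD, as Piwil1 and Tdrd6, the interval is then narrower than the 4 pairs alone would give. These counts hold for the moderated intervals only. Of the 4 genes within 1.2-fold (Piwil2, Tdrd6, Mael and Mov10l1), Mael with median centring and Mov10l1 with the scanner ratios had means outside their intervals. The intervals rest on the moderated spread of the pairs and do not cover the choice of processing. The SD over pairs was larger with the scanner ratios for all genes but Mael. It went from 0.82 to 1.11 for Piwil1 and from 0.19 to 0.33 for Tdrd6, so these counts are not carried over to the scanner ratios. The median SD of the ratio over pairs was 0.24 for the 8 genes, against 0.15 over all probes, with Piwil2, Mael and Mov10l1 below 0.15. Brightness was not matched in this comparison. The median log2 intensity over all probes was 8.16, and the 8 genes ran from 7.50 (Mov10l1) to 16.22 (Mael) as means of the DEHP mice. Levels are given below as log2 intensity, the mean over the 2 channels of a mouse, and are compared between mice for 1 probe at a time.

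**Figure D1:**
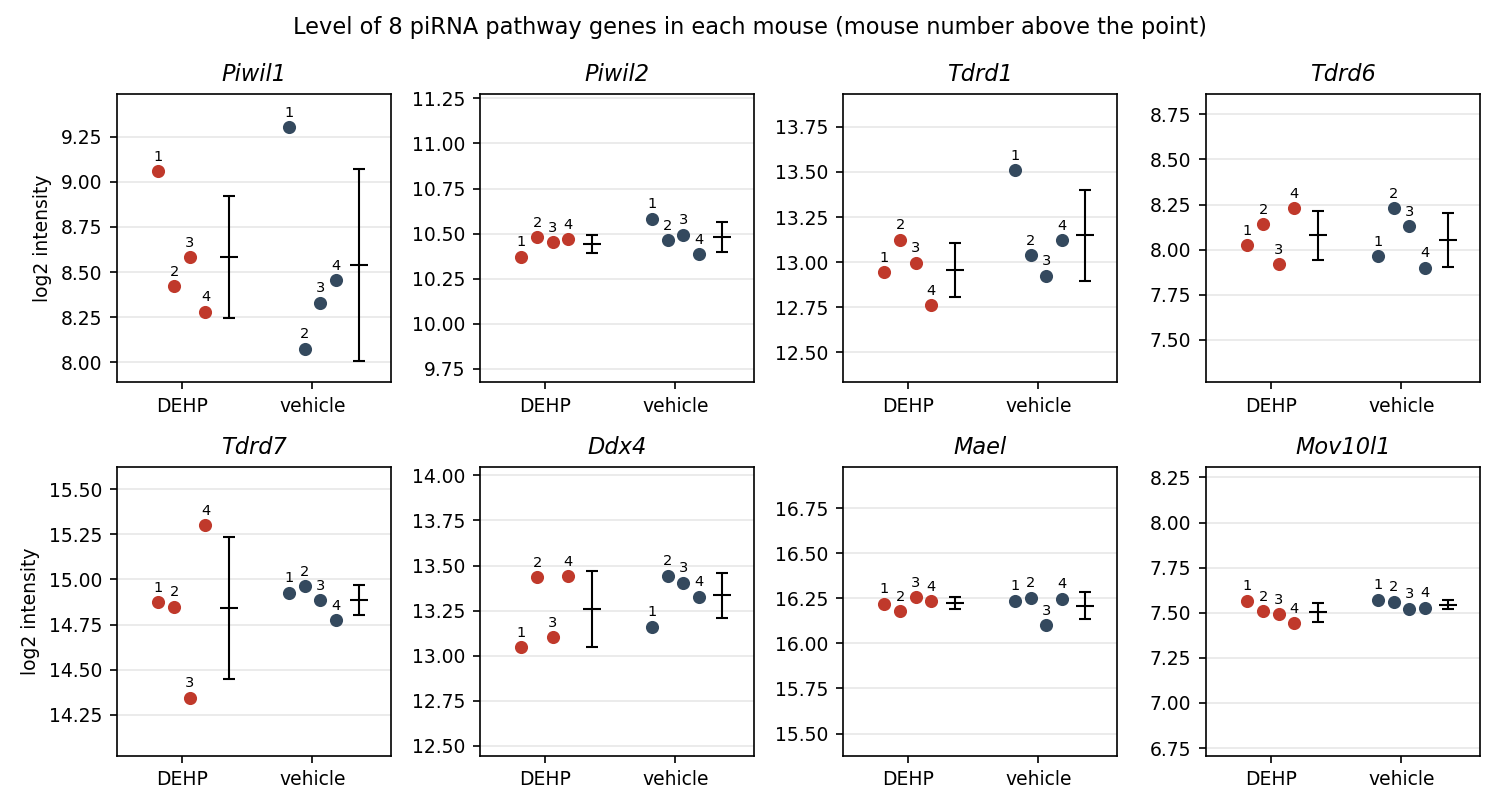
Level of the 8 measured piRNA pathway genes in each mouse, as log2 intensity of the brightest kept probe, with axes of equal length in all panels. Points are mice, numbered, and the bar beside them is the group mean ± SD (n = 4 mice each). Piwil1 spreads most, from 8.08 in vehicle mouse 2 to 9.30 in vehicle mouse 1, and DEHP and vehicle mice overlap in every panel.

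Piwil1 encodes MIWI, the PIWI protein of late meiotic cells and round spermatids, which binds the abundant pachytene piRNAs. Its probe (chromosome 5, 127989660 to 127989719, plus strand) read 9.06, 8.42, 8.58 and 8.28 in DEHP mice 1 to 4 and 9.30, 8.08, 8.33 and 8.45 in vehicle mice 1 to 4. All DEHP mice lay between the lowest and the highest vehicle mouse, numbers 2 and 1, with DEHP mouse 1 nearest to the top. The mean was 8.59 ± 0.34 in DEHP mice and 8.54 ± 0.53 in vehicle mice (SD, n = 4 each). In the pairs, the log2 ratio was 0.98, 0.091, 0.13 and -1.02, a difference of 1.98-fold upward in pair 1 and of 2.03-fold downward in pair 4. The mean ratio was 0.044 ± 0.82 (SD, n = 4 pairs). Its limma 95% interval, from the moderated variance, was -0.79 to 0.88, with a limma adjusted p of 0.990.

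This swing was among the widest on the array, since only 0.126% of all probes had a larger SD over the pairs. It was present in both dye orientations: pair 1 had 0.79 when DEHP was in Cy5 and 1.17 when it was in Cy3, and pair 4 had -0.91 and -1.14. With the ratios computed by the scanner software, pair 1 had 1.45 and pair 4 had -1.25. The authors' deposited table gave 1.40 and -1.17 for these pairs. All these ratios read the same amplified RNA of 1 cap per mouse. A difference between mice cannot be told apart from one of capture or amplification. The mean of Piwil1 turned to -0.27 without pair 1 and came to 0.40 without pair 4. The range of the level over the 8 mice was 2.34-fold.

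**Figure D2:**
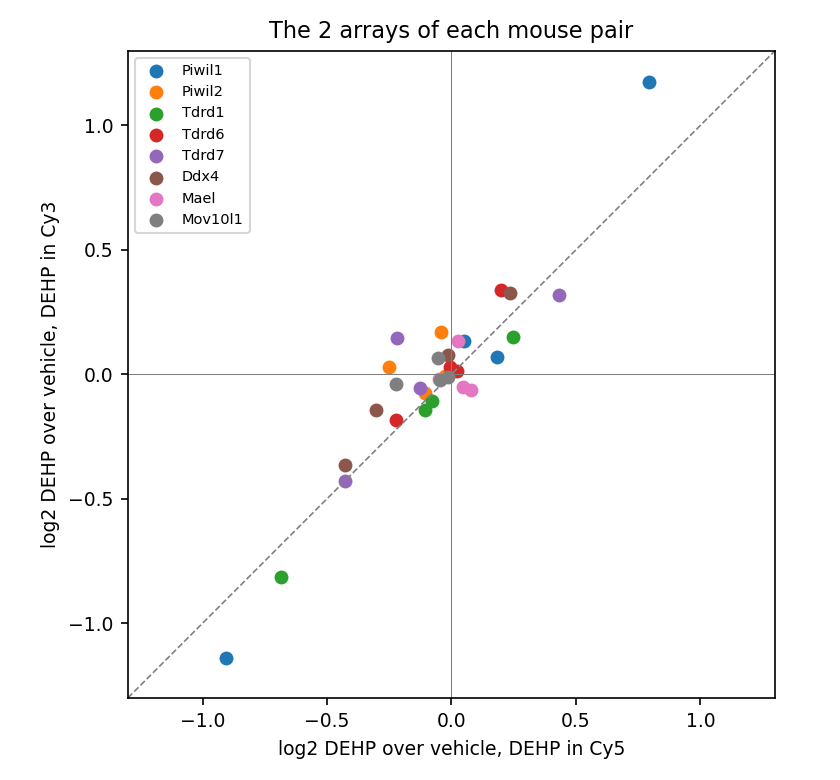
Log2 ratio of DEHP over vehicle of the 8 measured genes on the 2 arrays of each pair, with DEHP in Cy5 on the horizontal axis and DEHP in Cy3 on the vertical axis. Each gene has 4 points, 1 per pair, and the dashed line marks equal values. The Piwil1 points of pairs 1 and 4 and the Tdrd1 point of pair 4 lie farthest from 0, and 24 of the 32 points have the same sign in both orientations.

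Piwil2 encodes MILI, the PIWI protein found from the fetal germ cell to the spermatid, which cuts transposon transcripts. Its probe (chromosome 14, 65017174 to 65017233, minus strand) read 10.37, 10.48, 10.45 and 10.47 in DEHP mice 1 to 4 and 10.58, 10.46, 10.49 and 10.39 in vehicle mice 1 to 4. All 8 mice lay within 1.16-fold of each other, and the lowest level was that of DEHP mouse 1. Over the pairs the log2 ratio was -0.039 ± 0.080 (n = 4 pairs), with a 95% interval of -0.17 to 0.089 and a limma adjusted p of 0.937. Its SD over the pairs was exceeded by 75.2% of all probes.

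Piwil4 encodes MIWI2, the nuclear PIWI protein that directs DNA methylation of transposons in fetal and newborn mouse germ cells. Neither of its probes could be read. The probe at chromosome 9, 14532007 to 14532066 (minus strand) was well above background in 0 of 8 DEHP and 0 of 8 vehicle channels, and the probe at chromosome 9, 14537500 to 14537559 (minus strand) in 1 of 8 DEHP and 0 of 8 vehicle channels. The median brightness over background of the second was 14.9 in DEHP channels and 16.7 in vehicle channels. A difference in Piwil4 was not detectable at this signal, and no ratio is given for it.

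Tdrd1 encodes a protein of several Tudor domains that binds methylated arginines of MILI in nuage. Its brighter probe (chromosome 19, 56785896 to 56785955, plus strand) read 12.95, 13.12, 13.00 and 12.76 in DEHP mice 1 to 4 and 13.51, 13.04, 12.93 and 13.12 in vehicle mice 1 to 4. DEHP mouse 4 was the lowest of the 8 and vehicle mouse 1, its partner on the arrays, the highest, and the other 6 mice lay together between 12.93 and 13.12. The mean was 12.96 ± 0.15 in DEHP mice and 13.15 ± 0.25 in vehicle mice (SD, n = 4 each). The log2 ratio was -0.094, 0.20, -0.13 and -0.75 in pairs 1 to 4, with a mean of -0.19 ± 0.40, a 95% interval of -0.60 to 0.22 and a limma adjusted p of 0.907. It was -0.16 when DEHP was in Cy5, -0.23 when it was in Cy3, and 0.0014 with array weights. Without pair 4 the mean was -0.0071.

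The dimmer Tdrd1 probe did not follow it. It read 8.27, 8.32, 8.36 and 8.36 in DEHP mice 1 to 4 and 8.11, 8.32, 8.39 and 8.27 in vehicle mice 1 to 4. Here vehicle mouse 1 was the lowest of the 8 mice, and the ratio in pair 4 was 0.25, of opposite sign to the -0.75 of the brighter probe. The mean was 0.059 ± 0.15 (n = 4 pairs, limma adjusted p = 0.931). The array design assigns the brighter probe to another RefSeq transcript of Tdrd1 than the dimmer one. The difference between the probes was not tested.

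**Figure D3:**
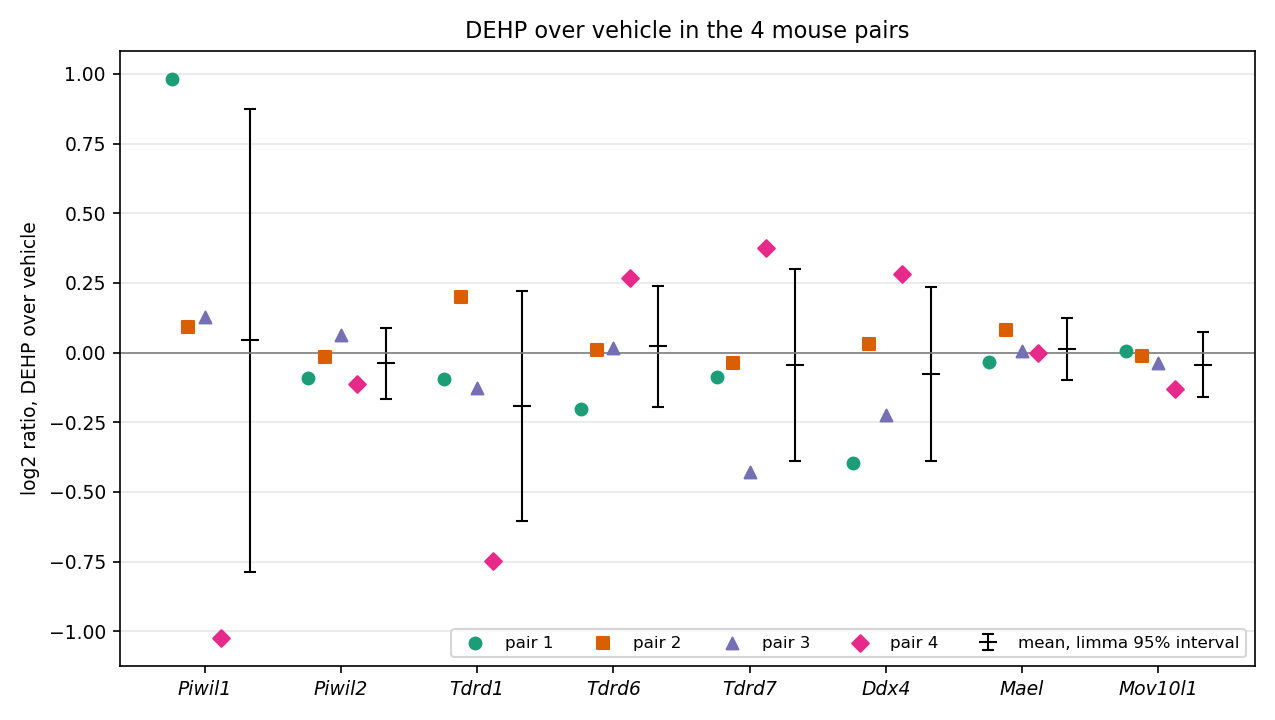
Log2 ratio of DEHP over vehicle of the 8 measured genes in each mouse pair, the mean of the 2 dye-swapped arrays. Coloured points are pairs and the black bar is the mean with the 95% interval of limma. Every interval includes 0, the widest being that of Piwil1, with 0.98 in pair 1 and -1.02 in pair 4, and the next that of Tdrd1, with -0.75 in pair 4.

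Tdrd6 encodes a large Tudor domain protein of the chromatoid body, which in mice is needed for that structure in spermatids. Its probe (chromosome 17, 41742506 to 41742565, minus strand) read 8.03, 8.14, 7.92 and 8.23 in DEHP mice 1 to 4 and 7.96, 8.23, 8.13 and 7.90 in vehicle mice 1 to 4. The lowest and the highest mouse were 1.26-fold apart, and each group held mice from both ends. DEHP over vehicle gave a log2 ratio of 0.023 ± 0.19 (n = 4 pairs), with a 95% interval of -0.19 to 0.24 and a limma adjusted p of 0.978. Its pair values ran from -0.20 in pair 1 to 0.27 in pair 4. With the ratios computed by the scanner software these pairs had -0.42 and 0.39, and the mean was 0.0029. The median brightness of the probe over background was 124 in DEHP channels and 144 in vehicle channels.

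Tdrd7, a Tudor domain gene needed in mice for chromatoid body remodelling and also for the lens, was more spread among DEHP mice than among vehicle mice. Its probe (chromosome 4, 46048426 to 46048485, plus strand) read 14.87, 14.85, 14.35 and 15.30 in DEHP mice 1 to 4 and 14.93, 14.96, 14.89 and 14.77 in vehicle mice 1 to 4. The lowest and the highest of the 8 mice were both DEHP mice, numbers 3 and 4, and were 1.94-fold apart, while the vehicle mice stayed close together. The mean was 14.84 ± 0.39 in DEHP mice and 14.89 ± 0.083 in vehicle mice (SD, n = 4 each), and the difference in spread was not tested. The log2 ratio was -0.089, -0.038, -0.43 and 0.38 in pairs 1 to 4, with a mean of -0.045, a 95% interval of -0.39 to 0.30 and a limma adjusted p of 0.975. The mean turned to 0.14 with median centring and to 0.083 without pair 3, and was -0.19 without pair 4. Pair 3 had -0.43 in both dye orientations, and pair 4 had 0.43 when DEHP was in Cy5 and 0.32 when it was in Cy3.

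Ddx4 encodes the mouse VASA homologue, a DEAD-box RNA helicase of nuage and a common marker of germ cells. Its probe (chromosome 13, 109754306 to 109754365, minus strand) read 13.05, 13.44, 13.10 and 13.44 in DEHP mice 1 to 4 and 13.16, 13.44, 13.40 and 13.33 in vehicle mice 1 to 4. DEHP mice 1 and 3 and vehicle mouse 1 formed the low end, and the other 5 mice lay between 13.33 and 13.44. The mean was 13.26 ± 0.21 in DEHP mice and 13.33 ± 0.13 in vehicle mice (SD, n = 4 each). The log2 ratio was -0.40, 0.031, -0.22 and 0.28 in pairs 1 to 4, with a mean of -0.077 ± 0.30, a 95% interval of -0.39 to 0.24 and a limma adjusted p of 0.945. The mean turned to 0.079 with median centring in place of loess and to 0.030 without pair 1.

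Mael encodes maelstrom, a nuage protein with an HMG box that in mice is needed for transposon silencing. Its probe (chromosome 1, 166172164 to 166172223, minus strand) had the smallest SD over pairs of the 8. It read 16.22, 16.18, 16.26 and 16.24 in DEHP mice 1 to 4 and 16.24, 16.25, 16.10 and 16.25 in vehicle mice 1 to 4. All mice lay within 1.11-fold of each other, with vehicle mouse 3 somewhat below the other 7. Its log2 ratio was 0.013 ± 0.048 (n = 4 pairs), with a 95% interval of -0.098 to 0.12 and a limma adjusted p of 0.977. With median centring it was 0.52, 0.28, -0.020 and 0.17 in pairs 1 to 4, with a mean of 0.24 ± 0.22 and a limma adjusted p of 0.868. With the ratios computed by the scanner software it was 0.014, 0.055, -0.027 and 0.042, with a mean of 0.021 ± 0.036. Its steadiness was thus seen with loess and with the scanner ratios but not with median centring. No spot was marked as saturated on any array.

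Mov10l1 encodes the RNA helicase that binds piRNA precursors and hands them to the processing enzymes. Its brighter probe (chromosome 15, 89136622 to 89136681, plus strand) read 7.57, 7.51, 7.49 and 7.44 in DEHP mice 1 to 4 and 7.57, 7.56, 7.52 and 7.53 in vehicle mice 1 to 4. The spread was small and the probe dim: its median brightness over background was 56.9 in DEHP channels and 71.2 in vehicle channels, where the offset of 50 added in the background correction draws ratios towards 0. Its log2 ratio was -0.043 ± 0.061 (n = 4 pairs), with a 95% interval of -0.16 to 0.073 and a limma adjusted p of 0.926. With the ratios computed by the scanner software, which add no such offset, it was -0.073, -0.24, -0.13 and -0.23 in pairs 1 to 4, with a mean of -0.17 and a limma adjusted p of 0.928. With no background correction, and so without the offset, the mean was -0.077. Background subtraction and dye normalisation differ between these ratios as well, and the part of the offset was not tested. The dimmer probe was well above background in 0 of 8 DEHP and 0 of 8 vehicle channels.

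Set beside one another, the 8 genes differed in which pair they leaned. In pair 4, Piwil1 and the brighter probe of Tdrd1 were lower in the DEHP mouse, whereas Tdrd6, Tdrd7 and Ddx4 were higher, at 0.27, 0.38 and 0.28. In pair 1, Piwil1 was higher in the DEHP mouse and Ddx4 and Tdrd6 were lower, at -0.40 and -0.20. The medians over the 8 genes were -0.090, 0.021, -0.015 and -0.057 in pairs 1 to 4. Vehicle mouse 1 was the highest of the 8 mice for Piwil1, Piwil2, the brighter probe of Tdrd1 and Mov10l1, the last by a narrow margin over DEHP mouse 1. It was the lowest of the 8 for the dimmer probe of Tdrd1.

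Markers of the germ cell stages also varied between pairs, and none of them passed the test. Elongating spermatid markers had median log2 ratios of -0.51, 0.069, 0.11 and 0.30 in pairs 1 to 4. The medians of round spermatid markers were 0.11, 0.18, -0.097 and -0.28. Markers of 1 list differed in direction. In pair 1, Akap4 had -1.22 and Odf1 0.41 among elongating spermatid markers, and Catsper2 had -0.70 and Acrv1 0.42 among round spermatid markers. The medians of spermatocyte markers were -0.010, 0.077, -0.20 and -0.099. The medians of spermatogonia markers lay between -0.082 and 0.025, but single markers varied more, as Stra8 with -0.77, 0.34, 0.36 and -0.38. The mean log2 level of the elongating spermatid list ran from 14.58 to 14.98 in DEHP mice and from 14.59 to 15.03 in vehicle mice, and that of the round spermatid list from 13.62 to 13.80 in DEHP mice and from 13.65 to 14.04 in vehicle mice. The highest round spermatid level was that of vehicle mouse 1. The part of germ cell composition in the values of Piwil1, Tdrd1, Tdrd7 and Ddx4 was not tested.

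**Figure D4:**
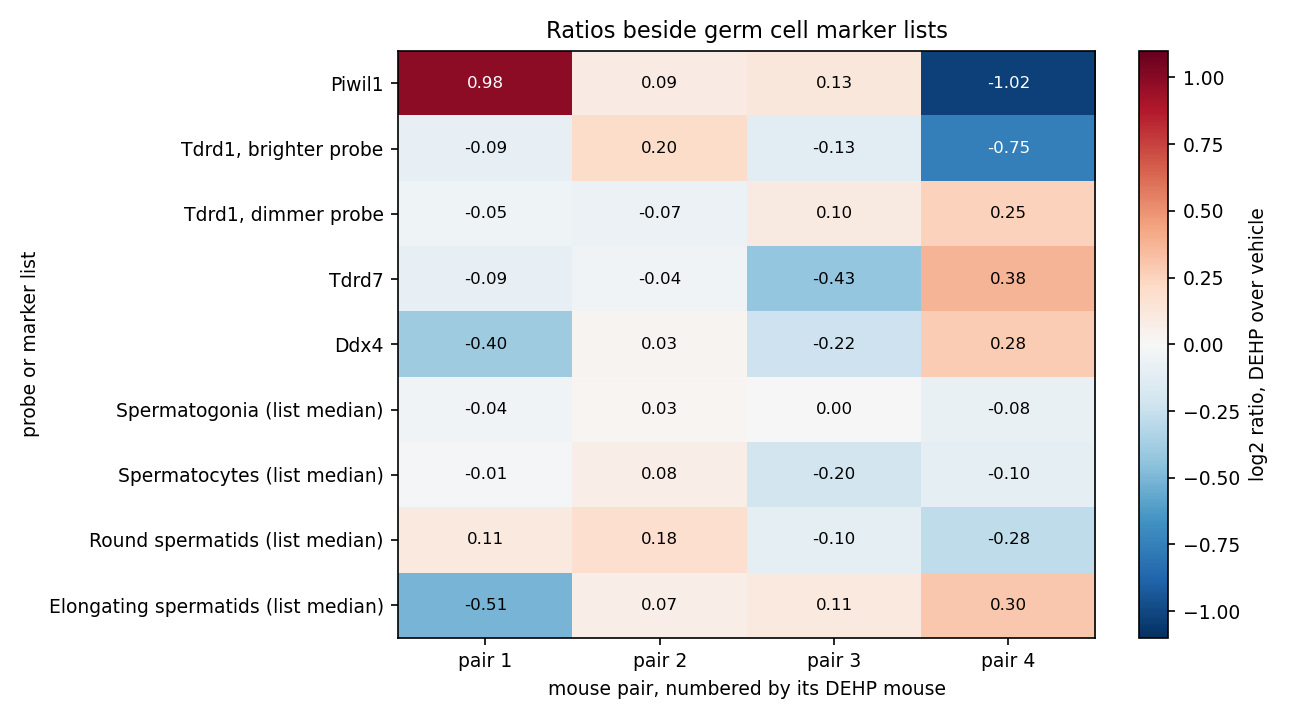
Log2 ratio of DEHP over vehicle in each mouse pair for Piwil1, both probes of Tdrd1, Tdrd7 and Ddx4, and the median ratio of 4 lists of germ cell markers. Red is higher in the DEHP mouse and blue is higher in the vehicle mouse. Pairs 1 and 4 hold the widest values, 0.98 and -1.02 for Piwil1, and the probes of Tdrd1 differ in sign in pairs 2, 3 and 4.

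For the 3 genes with the widest level over the mice, the genes with the nearest pattern were found by the root mean square difference of the mean-centred levels over the 8 mice, as a description with no test. Nearest to Piwil1, which had an SD of 0.41, were Mtm1, a lipid phosphatase, at 0.13, 4930465M20Rik at 0.14 and Cdc42ep5, an effector of the GTPase Cdc42, at 0.14. Nearest to Tdrd7, with an SD of 0.26, were Podxl2 at 0.072, Asxl1, a chromatin regulator, at 0.080 and Marchf6, a ubiquitin ligase of the endoplasmic reticulum, at 0.082. Nearest to Tdrd1, with an SD of 0.22, were Bclaf1 at 0.032, Nap1l1, a histone chaperone, at 0.061 and Vps54, a vesicle tethering protein, at 0.063. Bclaf1, picked for its nearness, was highest in vehicle mouse 1 and lowest in DEHP mouse 4, at 0.45 above and 0.25 below its mean. The brighter probe of Tdrd1 had 0.46 above and 0.29 below in these mice. For the dimmer probe of Tdrd1, vehicle mouse 1 was the lowest of the 8 mice.

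The rest of the pathway was described through 26 further genes, of which 23 were on the array and all 23 were measured. In limma, 0 of the 23 passed in either direction, where 0% of all probes did, and 1 of 23 had an unadjusted p under 0.05, against 4.59% of all probes. Leaving out Snd1, which was measured in DEHP channels alone, the median log2 ratio of the other 22 was -0.016, with 9 above 0 and 13 below 0, and 3 of the 22 (Tdrd9, Henmt1 and Ago2) had 1 sign in all 4 pairs, against 13.6% of all probes. No probe was matched to Pnldc1, Spocd1 or Btbd18.

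Among genes above 0, Henmt1 (4921515J06Rik in the files), which methylates the end of piRNAs, had the smallest p. Its log2 ratio was 0.17, 0.16, 0.39 and 0.38 in pairs 1 to 4, with a mean of 0.28 ± 0.13, a 95% interval of 0.11 to 0.44 and a limma adjusted p of 0.902. Its other probe had -0.041 ± 0.14 (n = 4 pairs), so that the probes did not share a direction. Tdrd12 (2410004F06Rik in the files), a Tudor domain helicase, had 0.14 ± 0.12, with 0.062 ± 0.11 at its other probe, and Dicer1, the nuclease of microRNA maturation, had 0.14 ± 0.32. Snd1 (AL033314 in the files), a Tudor nuclease, was well above background in 5 of 8 DEHP and 0 of 8 vehicle channels. Its level was 7.06 in DEHP mice and 6.99 in vehicle mice, and since it was measured through its DEHP channels alone no direction is read from it.

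Among genes below 0, Ago2 (2310051F07Rik in the files), the slicing Argonaute of microRNAs and short interfering RNAs, had -0.12 ± 0.081 with a negative ratio in all 4 pairs. Its other probes in use (Eif2c2 in the files) had -0.11 ± 0.20, with 1 pair above 0, and -0.010 ± 0.053, with 2 pairs above 0. Stk31, a Tudor domain kinase gene of germ cells, had -0.14 ± 0.13, and Tex15, which in mice acts with MIWI2 in transposon methylation, had -0.12 ± 0.10. Prmt5, the arginine methyltransferase that marks PIWI proteins for Tudor binding, had -0.081 ± 0.11. Mybl1, or A-MYB, the transcription factor that in mice drives pachytene piRNA precursors and several pathway genes at meiosis, had 0.14, -0.14, -0.29 and 0.21 in pairs 1 to 4, with a mean of -0.021 ± 0.23 (n = 4 pairs) and a limma adjusted p of 0.984.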

How the data were processed

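The authors deposited Agilent Feature Extraction 9.5.1.1 files, per the file headers. Per spot, the intensity used here was the mean of the foreground and the median of the local background, both deposited without subtraction. The software's own log10 ratio (Cy5 over Cy3) is background-subtracted and dye-normalised, per the file headers. A second table deposited by the authors holds log2 ratios of 16095 spots, made with limma per the submitters' processing notes, in a version and with settings not given in the sources used here. Their direction, DEHP over vehicle, and their match to spots by row number were found from the values (correlation with the scanner ratios 0.943 to 0.972 per array, slope 0.910 to 0.951, column medians -0.0022 to 0.012), and their centring stays unknown.

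Here intensities were corrected by normexp (offset 50), normalised by loess within arrays, averaged per probe, turned to DEHP over vehicle by the dye labels and averaged over the 2 arrays of a pair; 154 to 209 outlier spots per array were left out and 0 were saturated. Levels per channel followed loess and Aquantile. Limma 3.58.1 (R 4.3.3, statmod 1.5.0) fitted an intercept to the 4 pair means of 23009 probes (empirical Bayes, 2-sided), with p-values adjusted by Benjamini-Hochberg and a threshold of 0.05. For genes with several probes in use, the brightest stood for the gene. Dye-swapped arrays of a pair correlated by 0.539 to 0.717 across probes. Probes took current symbols from RefSeq (GRCm38.p6 names): 22951 by accession, 6659 by symbol, 3109 by synonym, and 8455 were not matched. In simulated pair means, 33% of changed probes were recovered at a log2 shift of 0.5, 81.5% at 1 and 96% at 2, with 4, 6 and 11 false calls. Simulated probes were independent, and the 200 changed ones were drawn from all probes. The median SD over pairs was 0.15 for all probes and 0.24 for the 8 genes, so these shares are not carried over to the 8 genes. The number of mice and arrays limits the precision.

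The genes and lists were chosen with earlier results of these data known. All 9 genes are named; of the further list, the 4 genes with the smallest unadjusted p per direction and Mybl1; and the 3 nearest genes for 3 members. Alternatives covered background correction, normalization, filter, pairs and dyes, array weights, each pair left out, and the authors' ratios.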

Additional observations from a re-analysis of the deposited data

Results flagged for a closer look

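Of 24 groups of 4 values examined (pair ratios, DEHP levels and vehicle levels of the 8 measured genes), 1 held a value far from the other 3. The Mael level of vehicle mouse 3 was 16.10 on the log2 scale, and its gap to the nearest vehicle mouse took 0.893 of the range of that group, above Dixon's 95% critical value for 4 values. Chance alone marks about 1 in 20 such groups.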

How the results depend on the processing

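In limma, no probe tested, and so none of the measured or further genes tested, passed under any of the 15 alternatives that refit the probes (18432 probes and 22 of the 23 further genes where all channels had to be above background, and 15436 probes with 5 of the 8 genes for the authors' ratios), among them the paired fit with a replicate block (8 arrays with a dye term, 0 calls, smallest adjusted p over all probes 0.476) and the fit with no replicate block (separate channels, 0 calls, 0.999). Over all alternatives the smallest adjusted p ran from 0.444 to 0.999. Mice of the same number did not deviate together (correlation -0.35 to -0.024), nor clearly did mice sharing arrays (0.040 to 0.30), and the pairing is that of the arrays. Probes with an unadjusted limma p under 0.05 numbered 1057 of 23009. Of the same probes there were 556 without pair 1, 501 without pair 3 and 1931 without pair 4. With DEHP in Cy5 alone there were 1718, and with DEHP in Cy3 alone 2432. With no filter there were 1611 of 41174, a lower share. No gene below passed, and the cause of these sign changes was not tested. With median centring, Piwil2 had 0.043, Tdrd7 0.14, Ddx4 0.079 and Mael 0.24, and the median of the 8 genes was 0.051; over all probes the median was then 0.012. With DEHP in Cy5 alone Tdrd6 had -0.0031, and with DEHP in Cy3 alone Piwil2 had 0.029 and Mael -9.1e-05. With array weights Tdrd1 had 0.0014 and Tdrd6 -0.0064. When 1 pair was left out, Piwil1 ran from -0.27 (pair 1) to 0.40 (pair 4), Tdrd1 from -0.32 to -0.0071, Tdrd6 from -0.058 (pair 4) to 0.099, Tdrd7 from -0.19 to 0.083 (without pair 3), Ddx4 from -0.20 to 0.030 (without pair 1) and Mael from -0.0097 (pair 2) to 0.028. Mov10l1 stayed below 0 in all 14 alternatives that gave it. The authors' table held 5 of the 8 genes and left out Tdrd7, Mael and Mov10l1. The number of arrays and, for Piwil4, Mov10l1 and Tdrd6, the signal over background limit these values.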
